A study of Mus musculus with 50 samples.

Results

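Dennd4c, Fbxl15, Psd and Cd200r3 are 4 mouse genes tied to CpGs with higher, not lower, mean methylation in muscle that lacked the DNA methyltransferase DNMT3A. Psd is among them only for 2 CpGs of the cluster of Fbxl15 that were assigned to the promoter of Psd. The 4 genes were chosen by that same contrast, through CpG clusters, a promoter or a gene body called higher in knockout. Their differences between genotypes are therefore given here as a description without a test. Their members were the CpGs that the deposited table assigns to the promoter or body of one of these genes, 36 of 205304 CpGs, in 5 of 51038 clusters of neighbouring CpGs. Dennd4c had 12 of them, which made up its promoter, its gene body and one cluster alike. Fbxl15 had 22, of which 21 formed a single cluster. Psd shared 2 CpGs of that cluster as promoter CpGs and had none in its body, and Cd200r3 had 1 CpG in its promoter and 1 in an intron.

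DNA came from the soleus, a slow postural muscle of the lower leg, of 12-week-old C57BL/6 mice of both sexes, and was analysed by reduced representation bisulfite sequencing (RRBS). All mice carried 2 floxed alleles of Dnmt3a, with LoxP sites around exon 19. Wild-type (WT) mice had no Cre, and mD3AKO mice (KO in the plots) also carried a Cre transgene driven by the muscle creatine kinase promoter. This promoter switches on late in muscle differentiation, so satellite cells, fibroblasts, immune and other non-muscle cells of the sample keep the gene. Mice had run on a treadmill for 30 min at 16 m/min and a 5% incline and were killed 10, 30 or 60 min later, or had spent the bout on a sham treadmill (rest). The WT samples numbered 5 at rest and 5, 5 and 6 at 10, 30 and 60 min, and the mD3AKO samples 5, 5, 7 and 6, each from the soleus of 1 mouse.

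The 44 samples held between 12819404 and 41285655 methylation calls. The median was 18163428 in WT and 23180372 in mD3AKO. The samples of rest and 60 min carried numbers from 1 to 25, and those of 10 and 30 min numbers from 26 to 50, so the numbering cannot be told apart from time but runs across both genotypes. Of the targeted gene, 21 CpGs were covered, with a ratio of mean relative coverage between mD3AKO and WT of 0.897 to 1.24, and 0 of them separated the genotypes, so the table gave no check of the deletion. RNA was not used here, and the muscle label was not checked against marker genes.

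Methylation of cytosine in CpG dinucleotides is laid down by DNMT3A and DNMT3B and copied to new DNA strands by DNMT1, while TET enzymes oxidize it. CpG islands at gene starts usually stay unmethylated, and isolated CpGs within genes are usually methylated. Dennd4c encodes a DENN domain protein, a guanine nucleotide exchange factor for Rab10, a small GTPase that acts in the movement of GLUT4 glucose transporter vesicles to the cell surface. Fbxl15 encodes an F-box protein with leucine-rich repeats, the substrate-binding part of an SCF ubiquitin ligase that targets Smurf1, an inhibitor of BMP signalling. Psd encodes a Sec7 domain exchange factor for the GTPase Arf6, which acts in endosome recycling. Cd200r3 is a member of the CD200 receptor family, cell surface proteins of myeloid cells, and is known from basophils and mast cells.

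The DNA around the measured CpGs is shown first, because 2 of the loci are dense in CpGs and the intronic one is not. All sequences are the forward strand of GRCm38, the assembly also called mm10, and capitals mark CpGs that were measured. The first lies in the untranslated first exon of Dennd4c and is cut to a short stretch. The second spans an intron and a coding exon of Fbxl15, the third the end of the same cluster, where the last pair of CpGs is assigned to the promoter of Psd, and the remaining ones surround the single CpGs of Cd200r3.
Dennd4c, chr4:86748710-86748739: agCGccCGCGgccCGCGagcccttCGgtCG
Fbxl15, chr19:46328635-46328747: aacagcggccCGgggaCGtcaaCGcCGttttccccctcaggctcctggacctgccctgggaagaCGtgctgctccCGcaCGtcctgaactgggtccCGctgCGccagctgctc
Fbxl15 and Psd, chr19:46329111-46329200: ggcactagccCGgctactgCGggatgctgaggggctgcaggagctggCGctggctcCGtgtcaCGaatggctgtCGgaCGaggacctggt
Cd200r3 intron, chr16:44947266-44947327: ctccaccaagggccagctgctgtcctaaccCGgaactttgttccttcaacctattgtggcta
Cd200r3 promoter, chr16:44943262-44943323: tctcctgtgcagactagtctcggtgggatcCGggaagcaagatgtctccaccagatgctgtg

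The Dennd4c cluster (chr4:86748680-86748751) lay 125 to 196 bp downstream of the annotated start of the gene, all of it in the 5′ untranslated exon. In 500 bp around it, 70.6% of bases were G or C and the ratio of observed to expected CpGs was 0.819, with 51 CpGs. The Fbxl15/Psd cluster (chr19:46328497-46329189) lay 313 to 1005 bp downstream of the start of Fbxl15, in coding exons and introns, with 70.6% and 0.852 in a window of the same size. Psd is transcribed the other way from a start at 46327156, so the 2 CpGs assigned to its promoter were at -2029 and -2033 bp from it and also inside a coding exon of Fbxl15. The other CpGs of Fbxl15 lay at -113 bp and from -1341 to -2018 bp, also within the 3000 bp upstream of Psd. Each CpG was assigned to a single promoter, so these count for Fbxl15 only. The intronic CpG of Cd200r3 (chr16:44947296) lay 3618 bp downstream of that gene's start and the promoter CpG (chr16:44943292) at -386 bp from it. Both are in a CCGG, the site that MspI cuts to make RRBS fragments. Around the intronic CpG 48.6% of bases were G or C, the CpG ratio was 0.136, and there were 4 CpGs in 500 bp. The members therefore joined 2 dense and nearly unmethylated stretches with 2 single measured CpGs that were largely methylated. The promoter CpG has another, unmeasured CpG close to it in the sequence shown.

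Of all clusters, 1.09% were called lower in mD3AKO and 0.00588% higher by the edgeR quasi-likelihood test (adjusted p under 0.05), and those higher were 3 clusters. The rule used this contrast, so nothing is read from it for the members. The clusters of Fbxl15/Psd and Dennd4c were the first and the second of these 3 by p, and the other, assigned to no gene (chr5:119563869-119564033), had mean levels of 4.35% in WT and 9.20% in mD3AKO. Just outside the threshold lay a cluster of Mfsd4b3 with 0.295% and 0.934%. The intronic CpG of Cd200r3 came next, with 64.9% and 86.0%. As a gene body, that single CpG was the last of 3 inside the threshold, with Mfsd4b3 just outside.

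At the Dennd4c cluster the methylation level, the share of methylated calls, was under 3% in all samples. The 21 WT samples averaged 0.201% ± 0.617 (SD) and the 23 mD3AKO samples 0.666% ± 0.672 (SD). The gap of 0.465 percentage points did not reach the SD between samples. The medians were 0 and 0.474%. These levels rest on 52 methylated of 22665 calls in WT and 196 of 26183 in mD3AKO. No methylated call was found in 11 WT samples, whose 614 to 1420 calls allow a level of up to 0.211 to 0.489%, and in 3 mD3AKO samples. Such limits cover counting error only, since PCR copies of one DNA molecule were not told apart. They also take calls at neighbouring CpGs of 1 read as independent, so they are too low where that does not hold.

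Single samples at Dennd4c were as follows. At rest the WT levels were 0.107, 0.127, 0.0535, 0 and 0% and the mD3AKO levels 0.153, 0.150, 0, 0.974 and 0.50%. At 10 min WT had 0, 0.179, 0, 0.165 and 0%, and mD3AKO 0.0870, 1.04, 0.149, 0.671 and 1.96%. At 30 min WT had 0.0840, 0, 0, 0.0819 and 0%, whereas the lowest, median and highest of the 7 mD3AKO samples were 0.20, 0.910 and 2.20%. The genotypes did not overlap at 30 min and overlapped at each other time. Each mD3AKO sample was above each WT sample at 30 min in 0.0588% of all clusters, but these samples were among those that chose the gene, so nothing is read from that share.

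The difference had the opposite sign at 60 min. There the lowest, median and highest WT levels were 0, 0.0294 and 2.84%, and those of mD3AKO were 0, 0.20 and 1.66%, with means of 0.572 and 0.422%. One WT male, sample 18, had the level of 2.84% and held 71.2% of all methylated WT calls at Dennd4c. Without it the WT mean at 60 min was 0.118% and the difference at 60 min was 0.304 points, and the WT mean over all times was 0.0693% ± 0.124 (SD). With it, 0 of 23 mD3AKO samples were above the WT range, and 10 of 23 were above 0.529%, the next highest WT level. The mD3AKO sample at 1.66%, number 17, also stood apart from its group at 60 min. With that sample left out and WT sample 18 kept, the difference at 60 min was -0.397 points. In samples numbered 1 to 25 the genotypes differed by 0.0536 points and in those numbered 26 to 50 by 0.867 points.

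**Figure D1:**
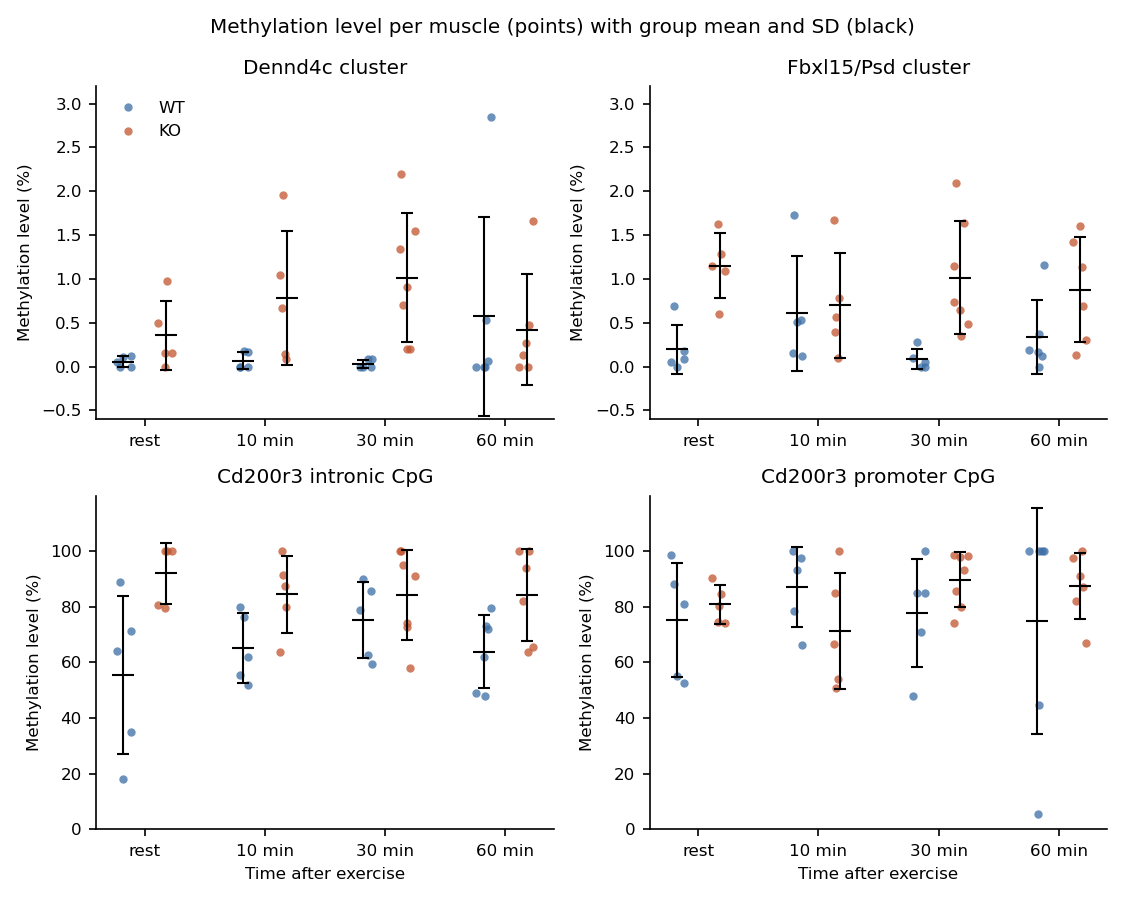
Methylation level in percent (vertical axis) of each muscle at rest and 10, 30 and 60 min after exercise, for the Dennd4c cluster, the Fbxl15/Psd cluster, and the intronic and the promoter CpG of Cd200r3. Each point is 1 of 44 samples (blue WT, orange KO), with the mean and SD of the group in black. The WT sample at 2.84% stands above the other WT samples at Dennd4c, and the genotypes are apart at 30 min at both clusters in the upper row. Both clusters were chosen by the genotype contrast in these same samples.

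Levels of the Fbxl15/Psd cluster averaged 0.309% ± 0.432 (SD) over the 21 WT and 0.942% ± 0.559 (SD) over the 23 mD3AKO samples, 0.632 points apart, which was more than either SD. It rests on 86 methylated of 33232 calls and 401 of 43807. Every mD3AKO sample had a methylated call, against 17 of 21 in WT. That count depends on depth, with a median of 1569 calls per sample here in WT and 1735 in mD3AKO. The 4 WT samples at 0 had 774 to 2026 calls, which allow a level of up to 0.148 to 0.388% if the calls are independent.

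Among the samples, WT at rest had 0, 0.179, 0.0496, 0.0853 and 0.687%, and mD3AKO at rest 0.606, 1.09, 1.63, 1.28 and 1.15%. All but 1 of these mD3AKO samples were above the resting WT range. At 10 min the levels were 0.531, 0.510, 1.73, 0.122 and 0.156% in WT and 0.782, 1.67, 0.0959, 0.391 and 0.564% in mD3AKO, and 0 of 5 mD3AKO samples were above the WT range. The difference at 10 min was 0.0913 points. Without the WT sample at 1.73%, number 42, it was 0.371 points, and 3 of 5 mD3AKO samples were above the next WT level. Its sign changed without mD3AKO sample 28 (-0.151 points), WT sample 47 (-0.0305 points) or WT sample 49 (-0.0221 points). Leaving out any other sample of that time kept it positive. At 30 min WT had 0, 0.0979, 0.278, 0 and 0.0548%, and the lowest, median and highest mD3AKO levels were 0.354, 0.733 and 2.10%, so that the groups did not overlap. The same was found in 0.0588% of all clusters. Nothing is read from this, as these samples were among those that chose the gene. At 60 min the lowest, median and highest levels were 0, 0.1797 and 1.16% in WT and 0.127, 0.911 and 1.60% in mD3AKO. Over all times 1 mD3AKO sample was above the WT range and 20 of 23 were above the WT mean.

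A coverage minimum moved the Fbxl15/Psd values. With only the 8 CpGs that had at least 20 calls in every sample, the level was 0.503% ± 0.887 (SD) in WT and 0.738% ± 0.834 (SD) in mD3AKO, a difference of 0.235 points. At Dennd4c 9 CpGs passed this minimum and the difference was 0.430 points.

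Methylated calls were scattered over CpGs and samples. At Dennd4c 9 of 12 CpGs had a higher mean in mD3AKO, and 4 had no methylated call in WT. The largest share of mD3AKO calls came from the CpG 168 bp downstream of the start, with a mean of 1.34% and methylated calls in 6 of 23 samples, and none in WT. The CpG at 125 bp had 2.31% in mD3AKO, most of it from a sample with 38.9%. At Fbxl15/Psd 17 of 21 CpGs had a higher mean in mD3AKO, and 4 had no methylated call in WT. The CpG 750 bp downstream of the start had 0.958% in WT and 2.67% in mD3AKO, again with a single sample at 37.5%. The CpG 990 bp downstream had no methylated call in WT and 1.49% in mD3AKO, from 4 samples. The median level over samples was 0 at each of these CpGs in both genotypes.

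**Figure D2:**
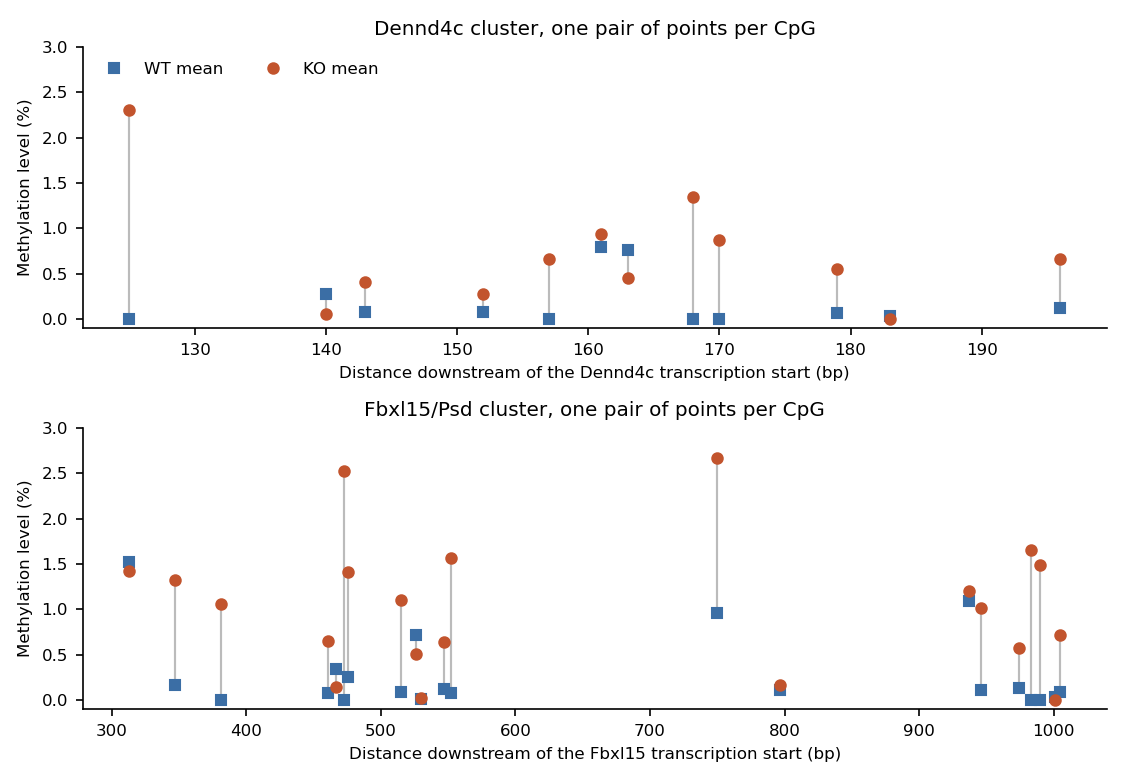
Mean methylation level in percent of each CpG of the Dennd4c and Fbxl15/Psd clusters (vertical axis) against its distance downstream of the transcription start in bp (horizontal axis), with WT as blue squares and KO as orange circles joined by a grey line. The KO mean is higher at 9 of 12 CpGs of Dennd4c and at 17 of 21 of Fbxl15/Psd.

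The scatter can be put as the share of pairs of one CpG and one sample in which a methylated call was found. At Dennd4c these were 14 of 252 pairs (5.56%) in WT and 40 of 276 (14.5%) in mD3AKO. At Fbxl15/Psd they were 37 of 441 (8.39%) and 68 of 483 (14.1%). Such shares depend on depth. The median calls per sample were 1134 in WT and 954 in mD3AKO at Dennd4c, and 1569 and 1735 at Fbxl15/Psd. Many pairs had a single methylated call, 11 and 16 at Dennd4c and 29 and 31 at Fbxl15/Psd. Levels over 10% within a pair were found in 1 WT and 3 mD3AKO pairs at Dennd4c and in 3 and 18 pairs at Fbxl15/Psd. A sample had methylated calls at up to 4 CpGs in WT and 5 in mD3AKO at Dennd4c, and at up to 4 and 6 at Fbxl15/Psd.

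**Figure D3:**
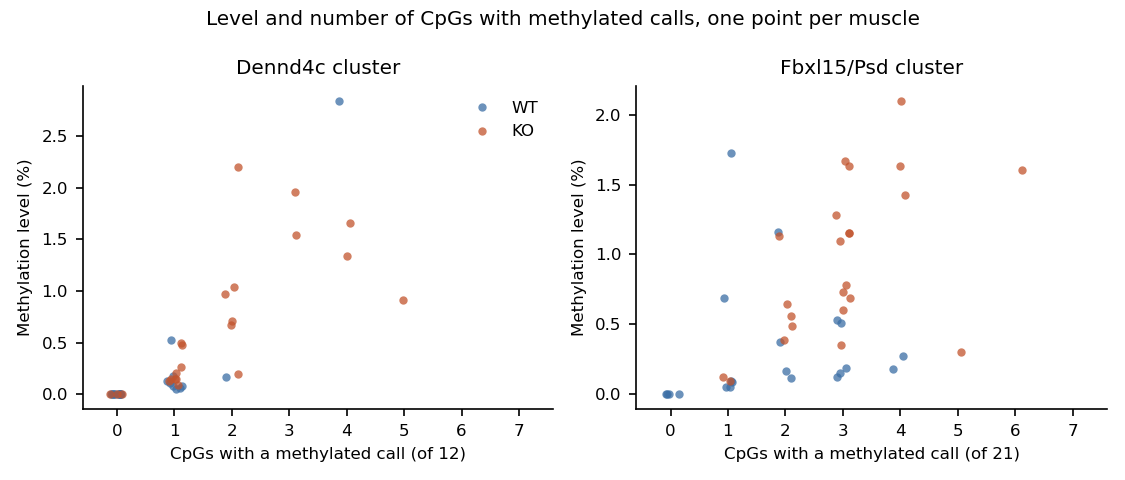
Methylation level in percent (vertical axis) against the number of CpGs with a methylated call in that sample (horizontal axis, points shifted slightly to be visible) for the Dennd4c and Fbxl15/Psd clusters. Each point is 1 muscle (blue WT, orange KO), and no muscle had methylated calls at more than 5 of 12 or 6 of 21 CpGs.

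For comparison, 6010 other clusters had at least 5 CpGs and a level under 1% over all samples. Their mean level was 0.596% ± 0.0190 (SD) over 21 WT and 0.564% ± 0.0188 (SD) over 23 mD3AKO samples. It was lower in the knockout (permutation test, two-sided, p = 2e-05). The share of their pairs of CpG and sample with a methylated call was 11.2% ± 3.65 and 12.2% ± 3.74 (SD), which differed by less than the SD of either genotype (p = 0.391 in the same permutation test). Of these clusters 46.2% were higher in mD3AKO. In WT, 3.21% of them had a lower mean than Dennd4c and 10.4% a lower mean than Fbxl15/Psd. In mD3AKO those shares were 70.7% and 94.9%. Both members were in the low part of the range of these clusters in WT. In mD3AKO, Dennd4c was within the range and Fbxl15/Psd near its top. The members were chosen by these same levels, so nothing is read from the ranks.

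The 2 CpGs assigned to the promoter of Psd, a part of the measured CpGs upstream of it, were nearly free of methylated calls. Over the same 21 and 23 samples they had 0.0574% ± 0.146 (SD) in WT and 0.358% ± 1.08 (SD) in mD3AKO, from 3 methylated calls of 3597 and 21 of 4602. Only 3 WT and 3 mD3AKO samples had any. The mD3AKO samples were at 3.11% (rest), 0.848% (10 min) and 4.27% (30 min), and the methylated mD3AKO calls were at 1 of the 2 CpGs. Without the 30 min sample, number 43, the genotypes differed by 0.122 points. The single CpG 113 bp upstream of the start of Psd, which the table assigns to Fbxl15 and which forms a cluster by itself (chr19:46327269), had 0.578% ± 2.19 (SD) in WT and 0.559% ± 1.70 (SD) in mD3AKO. It had methylated calls in 4 samples of each genotype, the highest at 10.1% in a WT and 6.31% in an mD3AKO sample, both at rest.

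The intronic CpG of Cd200r3 was methylated in most calls. The 21 WT samples averaged 64.9% ± 18.1 (SD) and the 23 mD3AKO samples 86.0% ± 14.2 (SD). The gap of 21.1 points was larger than either SD. The number of calls was 9 to 179 per sample, so single levels are coarse. At rest the WT levels were 18.2, 34.9, 64.1, 71.4 and 88.9%, and those of mD3AKO 79.7, 100, 100, 100 and 80.6%. Of the resting mD3AKO samples, 3 of 5 were above the resting WT range, whose top was a sample with 9 calls. At 10 min WT had 62.0, 76.5, 55.6, 51.9 and 80.1%, and mD3AKO 79.9, 63.6, 87.6, 100 and 91.5%. At 30 min WT had 62.6, 78.9, 90.1, 59.4 and 85.7%, and the lowest, median and highest in mD3AKO were 58.1, 91.1 and 100%. At 60 min those were 47.8, 67.1 and 79.5% in WT and 63.6, 88.1 and 100% in mD3AKO. The genotypes overlapped at each time, 12 of 23 mD3AKO samples were above the WT range, and the difference ran from 9.06 points at 30 min to 36.6 points at rest.

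The promoter CpG of Cd200r3 did not show this difference. WT had 78.6% ± 25.3 (SD, n = 21) there and mD3AKO 83.2% ± 14.1 (SD, n = 23), with a median of 85.0% in both. The WT levels ran from 5.26 to 100% and the mD3AKO levels from 50.7 to 100%. The WT sample at 5.26%, number 25 at 60 min, had 1 methylated call of 19, and without it the WT mean was 82.3%. The genotype means differed by -15.8 points at 10 min and by 12.0 and 12.6 points at 30 and 60 min, each less than the larger SD of its groups. Without sample 25 the difference at 60 min was -1.36 points. In whole muscle, a different share of methylated cells and a different share of cell types cannot be told apart, which holds for each of the 4 genes.

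Time after exercise was not used to choose the genes and was tested on all clusters with the edgeR quasi-likelihood test. It was called at 0.0% of all clusters and at 0 of the 5 that hold member CpGs. The unadjusted p was 0.893 at Dennd4c, 0.539 at Fbxl15/Psd, 0.922 at the intronic and 0.715 at the promoter CpG of Cd200r3 (adjusted p = 1.0 for each). The CpG upstream of Psd had an unadjusted p of 0.0185 in that test, 0.0627 in the likelihood ratio test and 0.0571 in limma (adjusted p = 1.0, 0.80 and 0.999), with a mean over genotypes of 2.25% at rest and 0.0513 to 0.104% after exercise. By unadjusted p under 0.05, 1 of the 5 clusters passed for time, against 2.86% of all clusters, and 0 with the other tools.

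The genotype by time interaction was likewise called at 0.0% of clusters and at 0 of these 5. By unadjusted p under 0.05, 0 of the 5 passed with the quasi-likelihood test and 1 each with the likelihood ratio test and limma, against 2.74%, 6.1% and 4.36% of all clusters. That was Fbxl15/Psd, with an unadjusted p of 0.0798, 0.0490 and 0.0391 in the 3 tools and adjusted p-values of 1.0, 0.817 and 1.0. At Dennd4c, whose genotypes were apart at 30 min and reversed at 60 min, the unadjusted p was 0.174 with the quasi-likelihood test.

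Sex was called at 0.0% of clusters and at 0 of the 5, none of which had an unadjusted p under 0.05 in any of the 3 tools, against 4.46 to 6.5% of all clusters. The log2 odds ratio of males to females was 0.218 (SE 0.748) at Dennd4c, 0.342 (SE 0.436) at Fbxl15/Psd and 0.571 (SE 0.616) at the intronic CpG of Cd200r3 (edgeR quasi-likelihood test, adjusted p = 1.0 for each). Levels at Dennd4c were 0.0886% in WT females, 0.304% in WT males, 0.506% in mD3AKO females and 0.814% in mD3AKO males, and without sample 18 the WT males had 0.04998%. Fbxl15/Psd had 0.185, 0.422, 1.03 and 0.858% in the same order, and 0.291% in WT males without sample 42. The intronic CpG of Cd200r3 had 63.2, 66.5, 85.6 and 86.5%, so the mD3AKO mean was higher in both sexes at each of the 3. Genotype by sex was called at 0.0% of clusters and at 0 of the 5, of which 1 had an unadjusted p under 0.05 in each of the 3 tools, against 3.28 to 4.83% of all clusters. This was the CpG upstream of Psd, with an unadjusted p of 0.00013 (adjusted p = 1.0), where 14 methylated calls in WT were all from females and 17 of 18 in mD3AKO from males. A single WT sample at rest held 11 of those 14 calls, and a single mD3AKO sample at rest held 9 of the 18. The mD3AKO samples at rest together held 17 of the 18. At the promoter CpG of Cd200r3 the levels were 67.6, 88.6, 85.6 and 81.1% in the same order, higher in mD3AKO in females and lower in males. Without sample 25 the WT females had 74.5%.

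Coverage, the calls at a feature scaled to all calls of the sample as CPM, was another readout that the choice of genes did not use. At Dennd4c it was 54.8 ± 16.5 CPM (SD, n = 21) for WT and 49.0 ± 16.8 CPM (SD, n = 23) for mD3AKO, and at Fbxl15/Psd 76.7 ± 22.0 and 82.3 ± 12.9 (SD). The intronic CpG of Cd200r3 had 2.84 ± 1.32 and 2.65 ± 1.24 (SD). None of the 7 member features tested passed a two-sided permutation test for genotype. The unadjusted p ran from 0.21 to 0.994 and the adjusted p from 0.711 to 0.994 in these permutation tests.

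The levels of the members did not move together from sample to sample. After the mean of each group was subtracted from the logit of the level, Pearson's r over the 44 samples was -0.0647 between Dennd4c and Fbxl15/Psd, 0.0972 between Dennd4c and the intronic CpG of Cd200r3, and 0.216 between Fbxl15/Psd and that CpG. With the logarithm of all calls of the sample, r was 0.0218, -0.265 and -0.0917. Among 23023 clusters with a median of at least 200 calls, those most like Dennd4c were at Fbxo7 (r = 0.618), Epha4 (0.574) and Gramd1a (0.558). Most like Fbxl15/Psd were clusters at Ccnc (0.625), at no assigned gene (0.615) and at Kdm5b (0.585), and most like the Cd200r3 CpG were clusters at Slc37a3 (0.603), Arl14ep (0.552) and March8 (0.547). These r are the highest of many, and the points share library and depth.

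Genes related to the members were examined in 5 lists, with the members and their clusters left out. The lists were chosen with earlier results of these data known, so their shares and p-values are not an independent comparison. In all, 97 of 109 genes had clusters, and 8 of their 245 clusters were called lower in mD3AKO and 0 higher (edgeR quasi-likelihood test), so that 3.27% were lower against 1.09% of all clusters. The likelihood ratio test and limma each called 9 of the 245 lower (3.67%) and 0 higher, against 2.68% and 1.73% of all clusters called lower and 0.0862% and 0.0216% called higher by these tools. The median difference was -0.273 points, against -0.455 points over all clusters. No list held a cluster called higher, the direction for which the 4 members were chosen. Only 0.00588% of all clusters were called higher, so 0 of 245 tells nothing about the lists. Time was called at 0 of the 245 clusters (edgeR quasi-likelihood test), with 6 (2.45%) at an unadjusted p under 0.05, against 2.86% of all clusters.

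Among Rab10 and other genes of GLUT4 vesicle traffic, 4 of 50 clusters were lower, with a median of -1.11 points. A cluster of Tbc1d1, a Rab GTPase-activating protein through which AMPK and insulin signals reach GLUT4 vesicles, fell from 14.3% ± 5.61 (SD, n = 21) to 3.56% ± 1.97 (SD, n = 23) in mD3AKO (adjusted p = 3.32e-06, edgeR), and 23 of 23 mD3AKO samples were below the WT mean. A cluster of Rab8b, a relative of Rab10, fell from 26.6% ± 15.4 to 6.16% ± 5.34 (adjusted p = 0.00404, 23 of 23 below). The CpG of Myo1c, a myosin motor of GLUT4 vesicles, fell from 92.2% ± 8.53 to 69.5% ± 13.6 (adjusted p = 0.0014, 22 of 23 below). The cluster of Myo5a, another vesicle motor, fell from 41.1% ± 16.2 to 21.4% ± 10.9 (adjusted p = 0.0242, 22 of 23 below). All 4 lay within gene bodies.

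Of the other DENN domain genes, 0 of 51 clusters were called by any of the 3 tools and 5 (9.8%) had an unadjusted p under 0.05, against 9.57% of all clusters, with a median of -0.139 points. The lowest p was at a single CpG of Dennd1a, a Rab35 exchange factor, with 91.8% ± 10.4 (SD) in WT and 77.9% ± 22.0 (SD) in mD3AKO (adjusted p = 0.283, edgeR).

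Of the genes of SCF ligases, the Fbxl family and the BMP pathway, 3 of 73 clusters were lower, with a median of -0.231 points. The cluster of Bmpr1b, a BMP receptor, fell from 16.1% ± 9.70 to 2.85% ± 3.04 (SD, adjusted p = 0.000603, edgeR). The cluster of Kdm2a, a histone demethylase of the Fbxl family that binds unmethylated CpGs, held 41 CpGs of the gene's promoter and body and fell from 3.79% ± 1.56 to 1.30% ± 0.634 (adjusted p = 0.000792). The promoter cluster of its relative Kdm2b fell from 9.18% ± 7.42 to 1.0% ± 2.01 (adjusted p = 0.00163). At each of the 3, all 23 mD3AKO samples were lower than the mean of WT.

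Of the Sec7 domain and Arf6 genes, 1 of 64 clusters was lower, with a median of -0.277 points. This was at Asap1, which encodes an Arf GTPase-activating protein, with 38.6% ± 13.1 (SD) in WT and 22.2% ± 9.88 (SD) in mD3AKO (adjusted p = 0.0199, edgeR, 23 of 23 below). The list of the CD200 family and its signalling partners had 7 clusters, of which 0 were called by any tool and 0 had an unadjusted p under 0.05. Of these, 6 belong to the adaptors Dok1 and Dok2 and the Ras GTPase-activating protein Rasa1, which are not receptors of the family, so the list's median of -0.344 points is mostly theirs. Only 1 cluster, a CpG in the body of Cd200r4, is in a gene of the receptor family itself, and it had the lowest p, with 75.3% ± 8.97 (SD) and 72.5% ± 7.05 (SD, adjusted p = 0.853, edgeR).

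**Figure D4:**
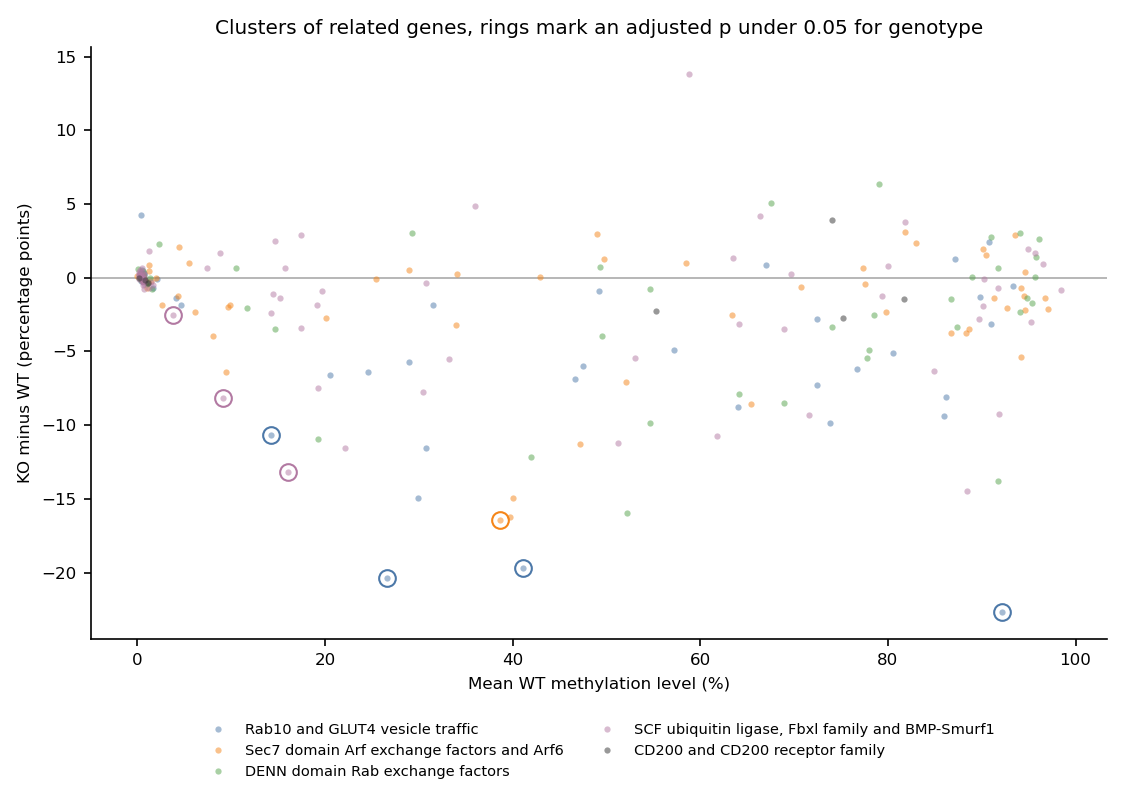
Difference in mean methylation level between KO and WT in percentage points (vertical axis) against the WT mean in percent (horizontal axis) for 245 clusters of the related genes, 1 point per cluster, coloured by list. Rings mark the 8 clusters with an adjusted p under 0.05 for genotype, all of them below 0.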

How the data were processed

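RRBS libraries of single soleus muscles were made by MspI digestion, bisulfite conversion and single-end sequencing. The authors trimmed reads with Trim Galore 0.4.0 and cutadapt 1.9.1, aligned them to mm10 with Bismark 0.18.1, added both strands, kept CpGs of the autosomes with at least 8 reads in every sample. They also removed samples with a low number of aligned reads. What the authors deposited are raw counts per CpG, methylated and unmethylated, with the authors' assignment of each CpG to a cluster (gaps of at most 100 bp), a promoter (3000 bp upstream to 1000 bp downstream of a start) and a gene body. Of 50 samples, 44 were used and 6 were not used here.

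The members and the gene lists were chosen with earlier results of these data known. Levels are pooled calls of a feature per sample, in percent. Counts summed over all clusters, promoters and gene bodies were fitted in edgeR 4.0.16 (quasi-likelihood F test, common dispersion, a coefficient per sample and a mean per group of genotype and time) with Benjamini-Hochberg adjustment over all features of a kind. Alternatives were the likelihood ratio test, limma 3.58.1 on log2((methylated + 1)/(unmethylated + 1)), a minimum of 20 calls and leaving out each sample. The scripts were tested on simulated data, in which no cluster as lightly methylated as Dennd4c or Fbxl15/Psd was given a change. Permutation tests used 100000 resamples. Samples of a group were compared in 101 pairs at 40662 CpGs between 20% and 80% methylation, and the chi-square per CpG was 7.24 to 18.7, so none were counted as 1 sample. Named were the 4 members, up to 5 called clusters per list or else the lowest p, and the 3 clusters most like each member cluster. Symbols, exons and starts came from GENCODE M21 on GRCm38.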

Additional observations from a re-analysis of the deposited data

Results flagged for a closer look

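In 80 sets of samples, each a group's levels or coverage at one of 5 member features, a sample was set apart when its gap to the nearest sample was large for the range of the group. Chance alone marks about 1 in 20 sets, more where most values are 0.

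At Dennd4c the level of WT sample 18 at 60 min was 2.84%, with the other 5 at 0 to 0.529%. In mD3AKO at 60 min sample 17 had 1.66%, with the others at 0 to 0.474%. At Fbxl15/Psd WT sample 18 was again the highest at 60 min with 1.16%, against 0 to 0.371%. WT sample 42 at 10 min had 1.73%, against 0.122 to 0.531%, and WT sample 20 at rest had 0.687%, against 0 to 0.179%. At the promoter CpGs of Psd 4 samples were the only one of their group with a methylated call. These were mD3AKO sample 2 at rest (3.11%), sample 45 at 10 min (0.848%) and sample 43 at 30 min (4.27%), and WT sample 13 at rest (0.327%).

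In coverage, mD3AKO sample 33 at 30 min had 95.5 CPM (calls scaled to the sample's total) at Dennd4c, against 40.5 to 63.7. WT sample 16 at 60 min had 42.5 there, against 62.2 to 71.9. WT sample 32 at 30 min had 118.1 at Fbxl15/Psd, against 61.2 to 74.6.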

How the results depend on the processing

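The genotype differences at Dennd4c, Fbxl15/Psd, the 2 CpGs of Cd200r3 and the promoter of Psd were recomputed under 43 other settings beside leaving out each sample. Of these, 37 moved by less than the SD between samples and kept their sign or gave 0, 1 moved by more and 5 changed sign. At Dennd4c, at Psd and at the promoter CpG of Cd200r3 the difference was itself smaller than the larger SD of the genotypes. A fall to 0 could therefore count as unmoved there, so the 37 are no measure of robustness. The settings with 1 time after exercise were chosen after seeing the data. At 60 min the difference was -0.150 points at Dennd4c and -0.147 points at Psd, and at 10 min it was 0.0913 points at Fbxl15/Psd and -15.8 points at the promoter CpG of Cd200r3. That CpG also had -0.362 points in samples numbered 26 to 50, and Psd -0.0311 points without its CpG with most methylated calls. Single samples were also left out after seeing the data. At Dennd4c at 60 min the difference was 0.304 points without WT sample 18 and -0.397 points without mD3AKO sample 17. At Fbxl15/Psd at 10 min it was 0.371 points without WT sample 42 and -0.151 points without mD3AKO sample 28. The other causes were not tested. Leaving out each sample gave 0.395 to 0.597 points at Dennd4c, 0.580 to 0.703 at Fbxl15/Psd, 18.8 to 22.4 at the intronic and 0.984 to 6.13 at the promoter CpG of Cd200r3, and 0.122 to 0.322 at Psd. The lowest value of the promoter CpG was without WT sample 25 at 60 min and that of Psd without mD3AKO sample 43 at 30 min. For time, its interaction with genotype, sex, genotype by sex and coverage, 0 member features were called in each setting. With a minimum of 20 calls the CpGs of Cd200r3 gave no value. The related genes had 6 called clusters of 146 with a minimum of 20 calls. No paired analysis was possible because each sample number belongs to 1 sample only. Depth limits the dense clusters, where 614 calls at 0 allow a level of up to 0.489% if the calls are independent. It also limits Cd200r3, with as few as 9 calls.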
